A study of Rattus norvegicus with 31 samples.

Results

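In irradiated rat testes, 57 of 14217 genes on an Affymetrix rat genome array were higher after hormone ablation than after sham treatment and lower again when estradiol was given with the ablation. Each gene was taken at its probe set of highest mean signal over 31 arrays, among probe sets with 1 gene symbol. A gene was kept where its mean in the ablation group was above -1 on the deposited log2 scale, its ablation mean exceeded its sham mean by at least 0.4, and its mean with ablation plus estradiol lay at least 0.5 below its ablation mean. The members were therefore chosen from these group means, and both differences are given as a description of the choice, in part with standard errors. Where a member is said to be called in either difference, at an adjusted p under 0.05, this too describes the choice. Nothing is read from it.

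The arrays measured total RNA of testes from LBNF1 rats, 25 to 27 weeks old, that had all received 6 Gy to the lower abdomen. The groups were ablation plus estradiol (GnRH antagonist, androgen receptor antagonist and estradiol, 6 arrays whose labels also speak of supplementation with FSH), ablation by flutamide, which blocks androgen action, together with a GnRH antagonist (11 arrays), and sham treatment (14 arrays). The arrays with estradiol are a deposit of their own, so that group and deposit cannot be told apart in either comparison with them. In whole testis, fewer cells of a type and less RNA per cell cannot be told apart.

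A GnRH antagonist stops the pituitary from releasing the gonadotropins that drive testosterone synthesis in Leydig cells and act on Sertoli cells, and flutamide blocks the androgen receptor. In irradiated LBNF1 rats, spermatogonia survive but fail to differentiate, and suppression of these hormones is known to let them differentiate again. Estradiol acts through nuclear receptors in several cell types of the testis and, through the pituitary, on gonadotropin release.

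Some arrays stood apart. Spermatid genes (the mean of Prm1, Prm2, Tnp1 and Tnp2) were above the 90th percentile of the array in sham 6 and above the array median in sham 6, sham 7 and ablation 4, 5 and 9. Among the arrays with estradiol, array 5 was the lowest for 29 of the 57 members, and among the ablation arrays, array 5 was the highest for 22. The rule favours genes low in an array with estradiol or high in an ablation array. The shares over all genes were not computed, so these counts are no trait of the members. The rule gave 42 members without estradiol array 5, all of them among the 57, and 45 without ablation array 5, of which 43 were among the 57. RNA quality could be read in the 25 earlier arrays only: the 3' minus 5' difference of the Gapdh control was 0.30 to 0.90 in ablation arrays and -0.06 to 0.95 in sham arrays (means 0.56 and 0.38 in ablation and sham arrays). The lowest values, -0.06 and -0.05, were those of sham 1 and 5, where the median member lay -0.12 and -0.21 from its sham mean, and the highest of each group were ablation 5 (0.90, median member 0.85) and sham 7 (0.95, median member 0.24). In ablation 7, at 0.72, the median member was 0.45, the lowest of its group, and in sham 4, at 0.77, it was -0.02. The 3' minus 5' difference of actin was 1.19 to 1.91 in ablation arrays and 0.46 to 2.41 in sham arrays. The part of RNA quality in the differences was not tested.

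The largest group by function was RNA processing, with 12 members: Srsf3, Srek1ip1, Snrnp48, Wbp4, Rbm26, Rbm44, Pabpn1, Thoc2, Ccar1, Leng8, Skic3 and Prrc2c. A further 8 act on DNA, chromatin or transcription (Gtf3c2, Kansl3, Setd4, Rad54l2, Rtel1, Aplf, Zfp536 and Zfp61). There were 6 genes grouped with channels and secreted peptides (Scn3b, Kcnc4, Npff and Tafa5, and with them Fxyd7 and Ank3, which are neither). A further 6 were grouped with enzymes and transport (Abcc1, Cyp2e1, Pla2g4b, Pitpnm3, Cemip and Nars2). There were also 6 signalling genes (Bmpr2, Eef2k, Ptprv, Arhgap32, Lmbr1l and Fbxo45) and 6 genes of membrane traffic and cilia (Golm1, Reep1, Itsn2, Htt, Bbs4 and Cep70). Smaller groups were 3 chemokine and complement genes (Ccl2, Cxcl13 and Masp2), 2 clock genes (Per1 and Per3), 2 myosin heavy chains (Myh6 and Myh1) and the spermatid gene Prm1. No role is given to the other 5, which are Nxpe2, Tmem243, LOC100911221, Tmsb10-ps5 and Thumpd3-as1. These groups were assigned once the members were known.

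The promoters below show 3 RNA processing members that share a short motif, and Myh6 and Cyp2e1, members whose ablation arrays overlapped neither other group. Each is the 250 bases before the annotated start, 5' to 3' on the strand of the gene, from RefSeq on GRCr8, with CACGTG (an E-box, the motif bound by clock and Myc family factors) and TATAAA in capitals. They lie at chr20:7093335-7093584 (plus strand, Srsf3), chr2:37709487-37709736 (plus, Srek1ip1), chr20:31271228-31271477 (minus, Ccar1), chr15:32411698-32411947 (minus, Myh6) and chr1:205269717-205269966 (plus, Cyp2e1).
Srsf3: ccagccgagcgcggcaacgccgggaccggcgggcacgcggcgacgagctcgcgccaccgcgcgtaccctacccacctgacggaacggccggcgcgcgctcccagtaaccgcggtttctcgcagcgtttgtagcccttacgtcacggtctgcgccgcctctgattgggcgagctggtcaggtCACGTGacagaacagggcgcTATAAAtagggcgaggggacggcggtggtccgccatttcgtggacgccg
Srek1ip1: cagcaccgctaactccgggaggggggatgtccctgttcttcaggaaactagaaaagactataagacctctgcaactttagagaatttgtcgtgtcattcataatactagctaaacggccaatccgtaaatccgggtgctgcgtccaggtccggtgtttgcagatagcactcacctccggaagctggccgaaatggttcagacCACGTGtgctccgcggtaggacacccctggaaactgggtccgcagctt
Ccar1: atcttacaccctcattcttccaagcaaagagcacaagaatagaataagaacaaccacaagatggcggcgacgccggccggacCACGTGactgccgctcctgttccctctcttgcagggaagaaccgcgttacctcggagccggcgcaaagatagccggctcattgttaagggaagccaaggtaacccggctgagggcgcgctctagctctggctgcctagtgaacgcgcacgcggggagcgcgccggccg
Myh6: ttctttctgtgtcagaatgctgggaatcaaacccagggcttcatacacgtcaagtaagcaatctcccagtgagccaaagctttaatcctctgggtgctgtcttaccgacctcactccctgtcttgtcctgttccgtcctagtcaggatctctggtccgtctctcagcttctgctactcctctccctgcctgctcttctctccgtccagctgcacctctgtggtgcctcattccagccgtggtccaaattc
Cyp2e1: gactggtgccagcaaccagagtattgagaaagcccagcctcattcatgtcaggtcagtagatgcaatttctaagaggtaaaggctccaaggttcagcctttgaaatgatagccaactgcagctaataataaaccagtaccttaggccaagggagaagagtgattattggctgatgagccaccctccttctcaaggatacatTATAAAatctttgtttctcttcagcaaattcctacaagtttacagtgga
In Srsf3 the E-box began at position -69 and a TATAAA at position -49, counted from the start. The E-box of Srek1ip1 began at -48 and that of Ccar1 at -168, the TATAAA of Cyp2e1 began at -49, and the Myh6 window held neither motif.

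Promoter sequences of 46 members were matched by gene number, of 27457 in the RefSeq table, over 250 bases before to 50 after the start. CACGTG, which reads the same on both strands, was in 5 of the 46 (10.9%: Ccar1, Eef2k, Srek1ip1, Srsf3 and Tafa5), against 10.1% of genes that passed the first threshold and 6.63% of all promoters. TATAAA on either strand was in 6 (13.0%: Cemip, Cxcl13, Cyp2e1, Myh1, Snrnp48 and Srsf3), against 6.51% and 14.3%. The GC box GGGCGG on either strand was in 22 (47.8%), against 65.4% and 34.7%, and CCAAT in 17 (37.0%), against 38.1% and 37.7%. The cAMP response element TGACGTCA was in the window of Htt (2.17%, against 3.16% and 1.89%). The palindromic estrogen response element (GGTCA and TGACC) and the androgen or glucocorticoid response element (AGAACA and TGTTCT), each with any 3 bases between its arms, were in 0 of the 46, and in 0% of genes that passed the first threshold, against 0.0219% and 0.00728% of all promoters. The median GC content was 59.3% in member promoters and 61.7% in those of genes that passed the first threshold. These shares describe the windows and draw nothing about the factors.

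**Figure D1:**
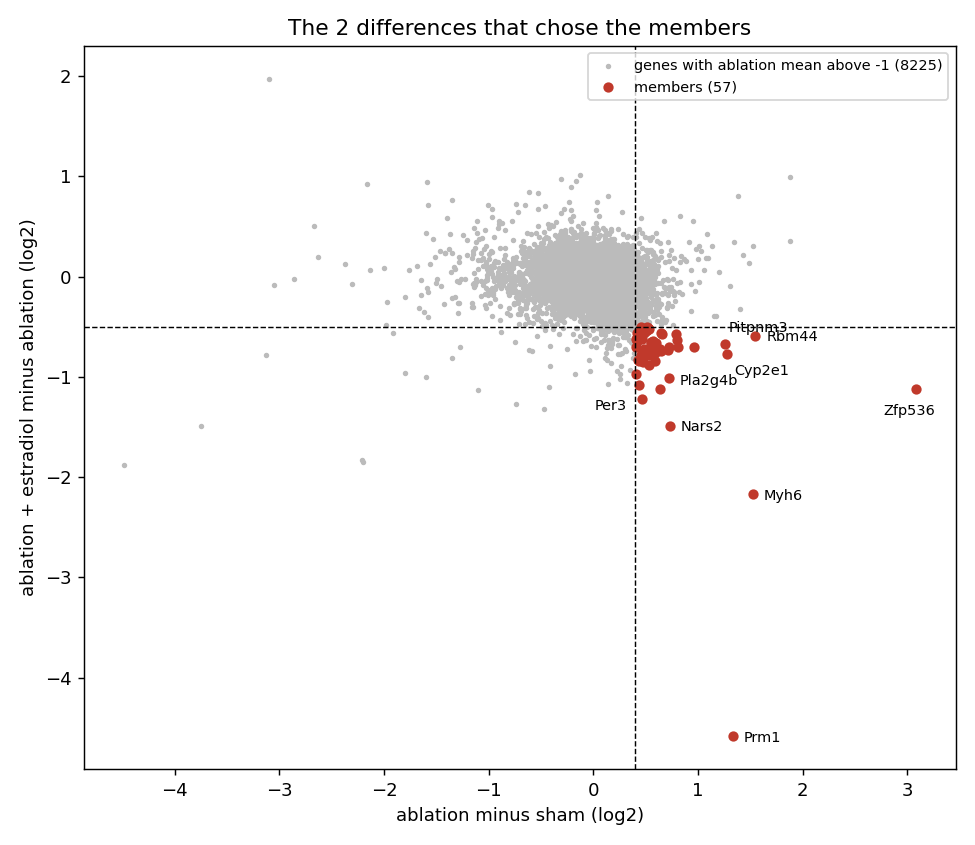
The x axis is the ablation mean minus the sham mean and the y axis the ablation plus estradiol mean minus the ablation mean, both log2, for 8225 genes with an ablation mean above -1. Dashed lines mark the thresholds at 0.4 and -0.5, and the 57 members (red) fill the corner to the lower right, most of them close to the lines, with Myh6, Prm1 and Zfp536 far from them.

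Most members differed by little more than the thresholds. Of the 8225 genes with an ablation mean above -1, 436 reached the threshold for ablation minus sham (5.3%) and 182 that for ablation plus estradiol minus ablation (2.21%). Among the members the difference between ablation and sham was 0.40 to 3.08, with a median of 0.53, against a median of 0.01 over the 8225 genes. The difference between ablation plus estradiol and ablation was -4.59 to -0.50, with a median of -0.68, against -0.03. At the first threshold, Ccl2, Rbm44 and Nars2 lay just inside with ablation means of -0.91, -0.90 and -0.89, and Usp13, Zfp457 and Tia1 just outside with -1.06, -1.10 and -1.13. At the threshold for ablation minus sham, Cep70, Skic3 and Masp2 lay just inside (0.40, 0.41 and 0.41) and Cep95, Dot1l and Rbm5 just outside (0.39, 0.38 and 0.37). At that for estradiol, Kcnc4, Fbxo45 and Ptprv lay just inside (-0.50, -0.51 and -0.51) and Rab28, Osbpl6 and Map7d2 just outside (each -0.49).

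All 57 members were among the 11379 genes that a filter on low values kept for testing. With limma fitted across all probe sets and an adjusted p under 0.05, 51 of the 57 were called higher with ablation than with sham, against a background of 9.24% of genes, and 44 were called lower with ablation plus estradiol than with ablation, against 2.73%. Since the rule used both differences, these counts are fixed by the choice in large part and nothing is read from them. The members not called for ablation were Prm1, Ccl2, Per3, Rad54l2, Thumpd3-as1 and Per1. Set against the 4 irradiated-described sham arrays alone, 27 of the 57 were called higher with ablation. Calls over all probe sets fell as well, from 1947 with all sham arrays to 853.

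By array, the median member lay -0.49 to 0.16 from its sham mean in the arrays with estradiol (median of arrays -0.11), 0.45 to 0.85 in ablation arrays (median 0.56) and -0.21 to 0.24 in sham arrays (median -0.02). In single arrays, 9 to 39 of the 57 members were above their sham mean with estradiol, 52 to 57 with ablation and 16 to 43 with sham. No ablation array overlapped either other group in the median member, as the rule would have it, and the arrays with estradiol and with sham overlapped.

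**Figure D2:**
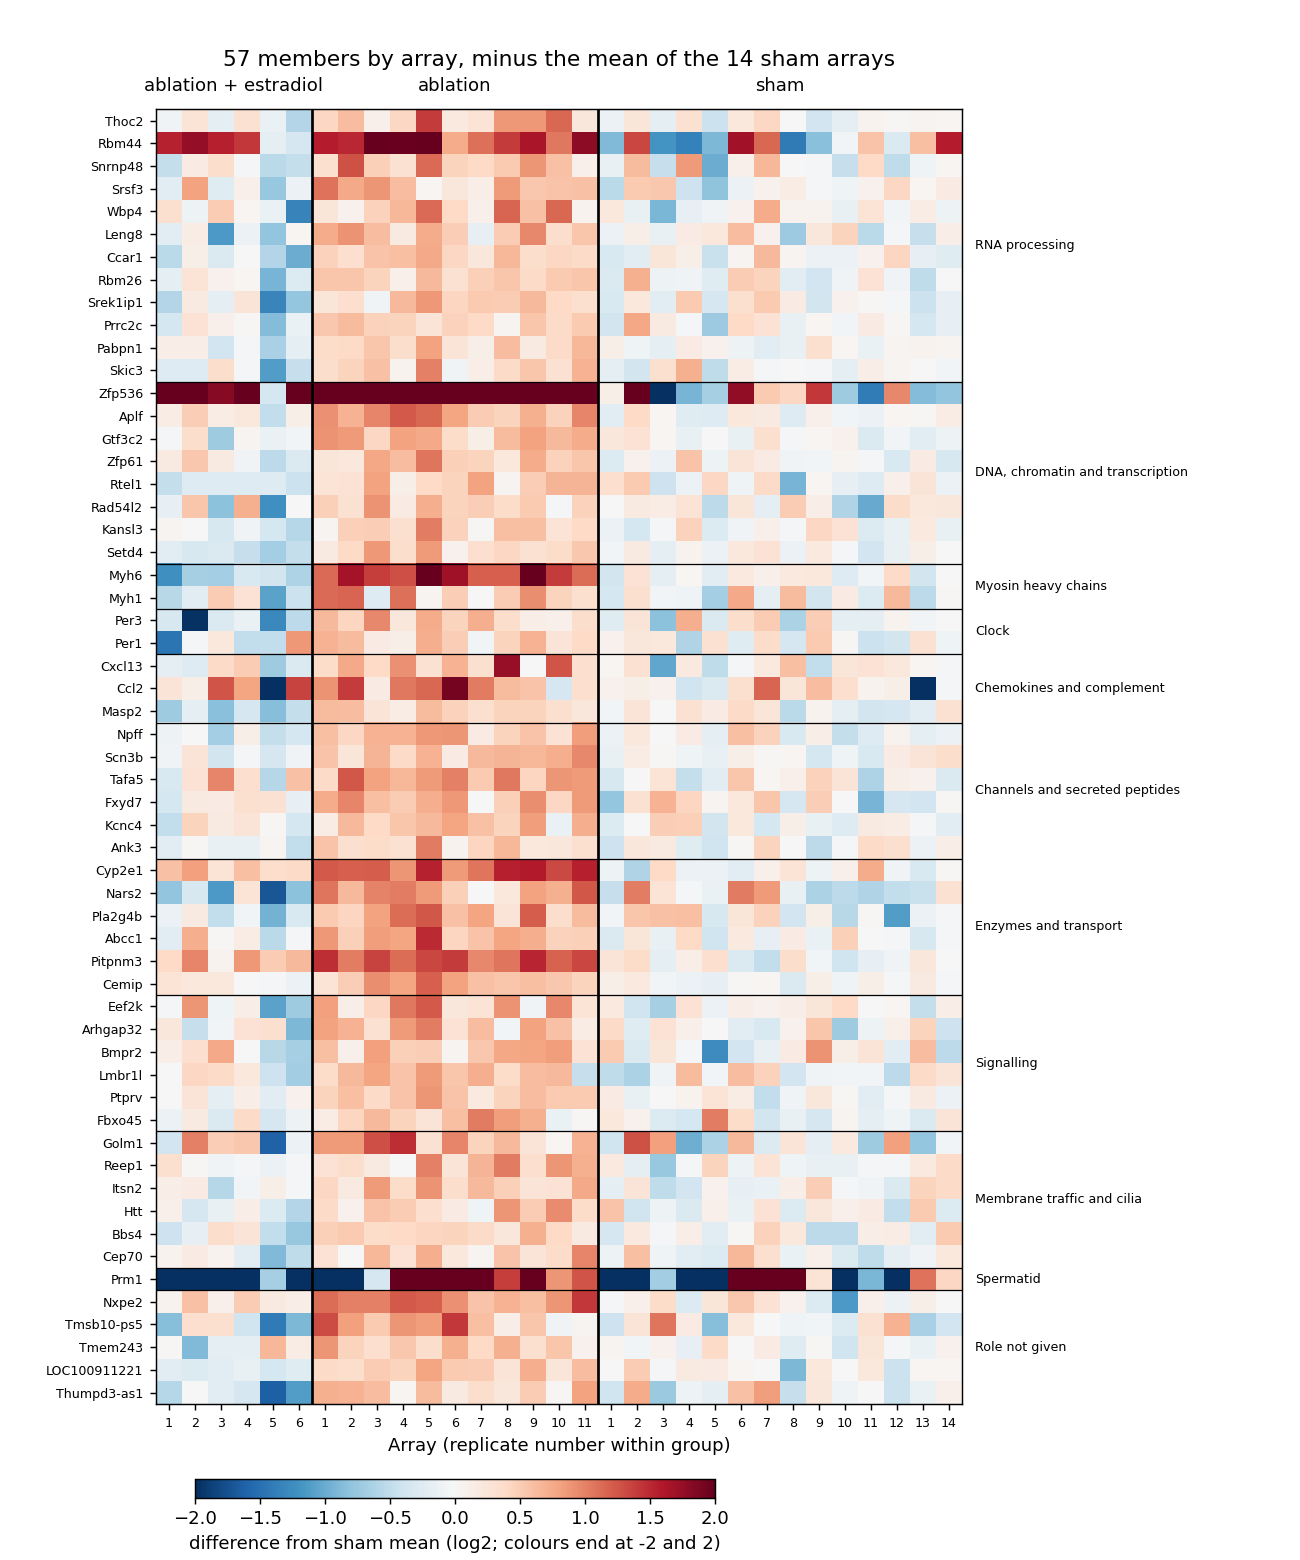
Rows are the 57 members in functional groups and columns the 31 arrays by group and replicate number, with ablation plus estradiol on the left, ablation in the middle and sham on the right. Colour is the log2 difference from the mean of the 14 sham arrays, ending at -2 and 2. Ablation columns are mostly red, estradiol array 5 is bluest among the estradiol columns, and Prm1 varies within ablation and within sham from one end of the scale to the other.

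Myh6 encodes the alpha myosin heavy chain of heart muscle. Its signals with ablation plus estradiol were -0.74, -0.15 and 0.18 (lowest, median and highest array), against 1.61, 1.87 and 3.02 with ablation and 0.12, 0.51 and 0.87 with sham. No array with estradiol or sham reached the ablation range, and 5 of the 6 arrays with estradiol fell outside the sham range. The difference was 1.53 ± 0.13 (SE) for ablation minus sham, or 2.88-fold, -2.17 ± 0.17 for ablation plus estradiol minus ablation, or 4.50-fold lower, and -0.64 ± 0.16 for ablation plus estradiol minus sham. Cyp2e1, a cytochrome P450 that oxidises ethanol and other small molecules, had -0.60, -0.38 and -0.05 with ablation plus estradiol, -0.01, 0.35 and 0.72 with ablation, and -1.47, -0.96 and -0.12 with sham. It too had no overlap between ablation and either other group, though by a narrow margin. Of its 6 arrays with estradiol, 5 lay inside the sham range and 1 above it. The differences were 1.27 ± 0.11 for ablation minus sham, -0.77 ± 0.14 for ablation plus estradiol minus ablation and 0.50 for ablation plus estradiol minus sham.

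Prm1, the protamine that packs DNA in spermatids, varied most. It had -6.09, -5.40 and -2.43 with ablation plus estradiol, -5.14, -0.38 and 4.18 with ablation, and -6.11, -2.56 and 5.78 with sham, so that ablation and sham overlapped over nearly their whole range and all 6 arrays with estradiol lay inside the sham range. Its difference was 1.33 ± 1.05 for ablation minus sham and -4.59 ± 1.33 for ablation plus estradiol minus ablation. With values below the 40th percentile of their array raised to it, which removes differences among very dim signals, these were 0.70 and -2.06. Of the 4 other spermatid genes tested from a list of 8, 0 were called in either comparison. Tnp1 differed by 1.37 ± 1.07 for ablation minus sham and -3.15 ± 1.35 for ablation plus estradiol minus ablation. Smcp differed by 0.26 and -1.33, Odf1 by 0.21 and -0.86, and Gapdhs by -0.24 and -0.06. The mean signal of 12 meiotic and postmeiotic genes was -2.12 to -1.91 with ablation plus estradiol, -2.38 to 0.11 with ablation and -2.61 to 1.38 with sham. The part of residual spermatids in the value of Prm1 was not tested. Zfp536, a zinc finger protein known in mouse as a repressor of neuronal differentiation, had -3.89, -1.25 and -0.59 with ablation plus estradiol, -1.09, -0.45 and -0.03 with ablation, and -5.86, -3.82 and -1.08 with sham. Its differences from sham were 1.96 with ablation plus estradiol and 3.08 ± 0.39 with ablation, or 0.54 and 1.32 with the dim values raised, and 12 of the 14 sham arrays were below the 40th percentile. The difference for ablation plus estradiol minus ablation was -1.12 ± 0.49, and -0.66 without estradiol array 5.

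Nars2, the mitochondrial asparaginyl tRNA synthetase, had -3.33, -2.42 and -1.35 with ablation plus estradiol, -1.62, -0.81 and -0.37 with ablation, and -2.24, -1.76 and -0.57 with sham. All but 1 array with estradiol lay below the lowest ablation array, and 5 of the 6 were below the 40th percentile. With the dim values raised, its differences were 0.60 for ablation minus sham and -0.91 for ablation plus estradiol minus ablation, against 0.73 ± 0.21 and -1.49 ± 0.26 as deposited. Pla2g4b, a cytosolic phospholipase that frees fatty acids from membrane lipids, had -1.69, -0.95 and -0.56 with ablation plus estradiol, -0.48, -0.11 and 0.50 with ablation, and -1.85, -0.75 and -0.14 with sham. Every array with estradiol lay below every ablation array and inside the sham range. The differences were 0.72 ± 0.16 and -1.01 ± 0.20. Golm1, a Golgi membrane protein, had -2.40, -0.59 and 0.24 with ablation plus estradiol, -0.73, -0.08 and 0.70 with ablation, and -1.75, -0.90 and 0.50 with sham. Its groups overlapped throughout, and its difference for ablation plus estradiol minus ablation, -0.73 ± 0.31, was not among those called and was -0.41 without estradiol array 5. The other probe set of Golm1 differed by -0.03 for ablation minus sham and -0.06 for ablation plus estradiol minus ablation, neither called.

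Aplf, a factor of DNA end joining, had 0.29, 0.93 and 1.27 with ablation plus estradiol, 1.22, 1.57 and 2.01 with ablation, and 0.52, 0.81 and 1.17 with sham. Every ablation array lay above every sham array, and 1 array with estradiol reached into the ablation range. Its difference was 0.81 ± 0.10 for ablation minus sham and -0.70 ± 0.13 for ablation plus estradiol minus ablation. Nxpe2, to which no role is given here, had -1.54, -1.46 and -1.02 with ablation plus estradiol, -1.05, -0.61 and -0.20 with ablation, and -2.76, -1.52 and -1.07 with sham. Ablation and sham were again apart, by a narrow margin, and the differences were 0.96 ± 0.13 and -0.70 ± 0.17. Abcc1, a pump that exports glutathione conjugates and drugs, had 0.38, 0.92 and 1.64 with ablation plus estradiol, 1.34, 1.64 and 2.41 with ablation, and 0.52, 0.89 and 1.39 with sham. Here 8 of the 11 ablation arrays were above the highest sham array, and the differences were 0.72 ± 0.12 and -0.70 ± 0.15.

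Pitpnm3, named for the family of membrane-associated phosphatidylinositol transfer proteins, had -1.59, -1.08 and -0.68 with ablation plus estradiol, -0.70, -0.33 and -0.14 with ablation, and -2.16, -1.69 and -1.29 with sham. The arrays with estradiol stood between the other groups, with 5 of 6 below the lowest ablation array and 1 of 6 inside the sham range. The differences were 1.25 ± 0.11 for ablation minus sham, -0.68 ± 0.14 for ablation plus estradiol minus ablation and 0.58 for ablation plus estradiol minus sham. Cxcl13, the chemokine that draws B cells, had -0.89, -0.41 and 0.33 with ablation plus estradiol, -0.18, 0.22 and 1.56 with ablation, and -1.22, -0.07 and 0.42 with sham. The groups overlapped, 2 ablation arrays reached above 1, and all arrays with estradiol lay inside the sham range. Its differences were 0.64 ± 0.17 and -0.74 ± 0.22.

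**Figure D3:**
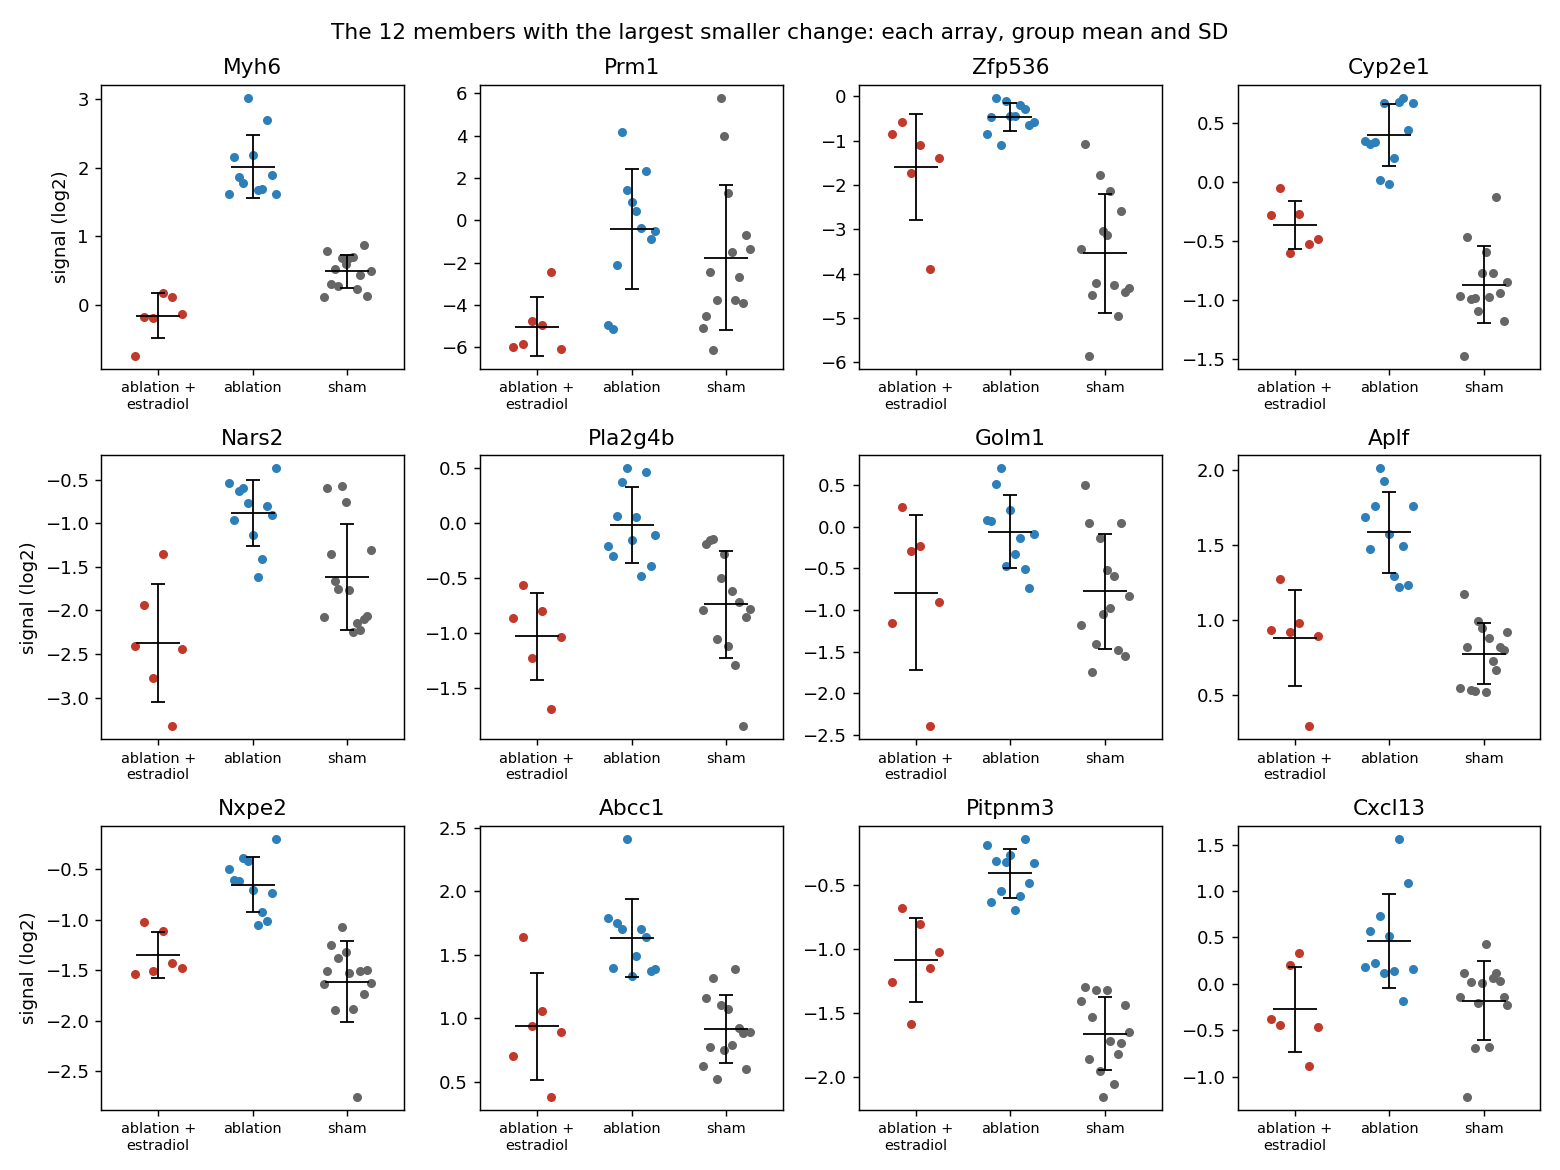
Each panel is 1 of the 12 members with the largest smaller change (the lesser of the 2 differences in size), with the log2 signal on the y axis and a point for each array of ablation plus estradiol (6), ablation (11) and sham (14). Bars give the mean and SD. Myh6 shows ablation points clear of both other groups, Cyp2e1 shows the same by a narrow margin, and Prm1 and Golm1 show groups that overlap.

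Over all members, every array with estradiol lay below every ablation array in 13 genes, against a background of 0.705% of the 8225 genes, and every ablation array lay above every sham array in 6, against 0.584%. Both backgrounds are those of differences that the rule used. The 13 were Myh6, Cyp2e1, Pla2g4b, Npff, Itsn2, LOC100911221, Ccar1, Per3, Rtel1, Thumpd3-as1, Setd4, Ank3 and Masp2. The 6 were Myh6, Cyp2e1, Aplf, Nxpe2, Pitpnm3 and Cemip, the last of which takes part in breaking down hyaluronan.

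The RNA processing genes cover splicing, export and decay of transcripts. Pre-mRNA splicing depends on SR proteins such as Srsf3, which help the spliceosome to find exons, and Srek1ip1 binds another splicing regulator of this family. Snrnp48 belongs to the minor spliceosome, Wbp4 to the spliceosome, Pabpn1 binds the poly(A) tail in the nucleus, Thoc2 is part of the THO complex of mRNA export, and Skic3 belongs to the Ski complex that feeds RNA to the exosome. Rbm44 is known in mouse from the bridges between germ cells, and Ccar1 as a coactivator of nuclear receptors.

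These 12 had differences of 0.41 to 1.55 for ablation minus sham (median 0.50, the highest being Rbm44, at 0.70 with the dim values raised) and of -0.88 to -0.58 for ablation plus estradiol minus ablation (median -0.66). Without estradiol array 5, the latter fell short of the threshold of -0.5 for Rbm26 (-0.47), Rbm44 (-0.36), Pabpn1 (-0.49) and Prrc2c (-0.44). The others of the 12 still reached it. All 12 were called higher with ablation (9.24% of all genes were), and 10 lower with estradiol (2.73% of all genes), the exceptions being Rbm44 and Wbp4, counts that the choice of members fixes in large part. Their means with ablation plus estradiol were below the sham mean in 11 of 12, the exception being Rbm44. In Rbm44, 10 of the 14 sham arrays were below the 40th percentile, and its difference of 0.96 from sham was 0.39 with the dim values raised. Srsf3 had -1.85, -1.25 and -0.28 with ablation plus estradiol (lowest, median and highest), -1.04, -0.49 and -0.01 with ablation, and -1.88, -1.03 and -0.55 with sham. Its groups overlapped, though the medians with estradiol and with sham were close. Ccar1 had 0.53, 1.10 and 1.63 with ablation plus estradiol, against 1.74, 1.93 and 2.28 with ablation and 1.07, 1.48 and 2.16 with sham, so that no array with estradiol reached the ablation range. Its other tested probe set differed by 0.02 for ablation minus sham and -0.27 for ablation plus estradiol minus ablation, neither called. Srek1ip1 had -1.65, -0.70 and -0.06 with ablation plus estradiol, -0.39, 0.10 and 0.54 with ablation, and -0.76, -0.33 and 0.21 with sham.

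Within groups, correlations among members are a description over arrays in which all genes share 1 RNA extract. The median correlation of deviations from the group mean over 31 arrays was 0.35 among their 66 pairs and 0.16 among all 1596 pairs of members, against 0.15 among genes that passed the first threshold. Prrc2c and Rbm26 had r = 0.78, Srek1ip1 and Ccar1 r = 0.62, and Rbm26 and Thoc2 r = 0.44. Pairs over 0.5 made up 6.83% of pairs of members, against 10.5% of pairs of genes that passed the first threshold.

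Of 129 tested genes whose symbols mark them as RNA-binding or splicing factors, a family put together after the data were seen, 27 were called higher and 2 lower with ablation than with sham, with a median difference of 0.12 against 0.00 over all tested genes. With ablation plus estradiol against ablation, 0 were called higher and 19 lower, with a median of -0.09 against -0.02. Leaving out the 9 of these that are members, 18 of 120 were called higher with ablation (15% of them, against 9.24% of all genes) and 11 lower with estradiol (9.17%, against 2.73%). Among those that are no members, Sf3b1, a core splicing factor, differed by 0.29 with ablation and -0.49 with estradiol, Srsf5 by 0.27 and -0.44, and Prpf39 by 0.36 and -0.66. Hnrnph3 (0.50 and -0.12) and Srsf9 (0.38 and 0.19) were called for ablation and not for estradiol, and Rbmx was called lower with ablation (-0.52).

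The 8 genes of DNA, chromatin and transcription had differences of 0.43 to 3.08 for ablation minus sham and of -1.12 to -0.52 for ablation plus estradiol minus ablation. Setd4, a methyltransferase of the SET family, had 0.27, 0.56 and 0.74 with ablation plus estradiol, 1.04, 1.32 and 1.82 with ablation, and 0.56, 0.93 and 1.24 with sham. Its arrays with estradiol lay below every ablation array, and its difference from sham was -0.41. Gtf3c2, a subunit of the factor that recruits RNA polymerase III, differed by 0.64 ± 0.10 and -0.73 ± 0.12. Kansl3, of a histone acetyltransferase complex, differed by 0.43 and -0.64, and Rtel1, a helicase that guards telomeres, by 0.46 and -0.78. Rad54l2, a chromatin remodeller that binds the androgen receptor, was called in neither comparison (0.44 ± 0.17 and -0.60 ± 0.22).

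The clock genes Per1 and Per3 encode repressors of the circadian feedback loop. Per3 had -2.89, -1.33 and -1.05 with ablation plus estradiol, -0.81, -0.48 and 0.05 with ablation, and -1.73, -0.94 and -0.18 with sham. All arrays with estradiol lay below all ablation arrays, and the difference between ablation plus estradiol and sham was -0.76, or -0.53 with the dim values raised. Per1 had -2.17, -0.96 and 0.16 with ablation plus estradiol, -0.75, -0.26 and 0.01 with ablation, and -1.31, -0.65 and -0.18 with sham, with overlap throughout. Their deviations from the group means had r = -0.09 over 31 arrays. Of 18 clock genes tested, Cry1, Nr1d1, Nr1d2 and Bhlhe41 were called higher and Npas2 lower with ablation, and Per3 alone was called with estradiol. Nr1d1, a repressor of the loop that acts beside the Per genes, differed by 0.61 for ablation minus sham and 0.08 for ablation plus estradiol minus ablation, and Npas2, an activator, by -0.79 and -0.07. Per2, the other Per gene, differed by 0.03 and -0.38 and was not called. The labels used here give no time of day.

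Myh1 encodes a myosin heavy chain of fast skeletal muscle. It had 2.12, 2.88 and 3.71 with ablation plus estradiol, 2.94, 3.70 and 4.36 with ablation, and 2.51, 3.12 and 3.95 with sham, and the groups overlapped. Its 4 other probe sets went the other way for ablation minus sham (-0.71 to -0.13), against 0.54 for the probe set used, and the mean of all its probe sets differed by -0.20. Of 28 tested genes of striated muscle, 4 were called higher and 4 lower with ablation, and 1 higher and 3 lower with estradiol. The gene higher with estradiol was Myom2, a protein of the sarcomere's M band, at 0.99 above ablation and 2.87 above sham. The 3 lower ones were Myh6, Myh1 and Fbxl22 (-1.65). The mean signal of the 28 genes was -1.21 to -0.92 with ablation plus estradiol, -1.02 to -0.79 with ablation and -1.05 to -0.82 with sham. Besides Myh6 and Myh1, those called higher with ablation were Myom2 (1.87) and Ldb3 (0.68), and those called lower were Tnnt1 (-2.53), Pygm (-0.69), Myl1 (-0.65) and Myoz1 (-0.27). The part of muscle tissue in the values of Myh6 and Myh1 was not tested.

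Of the chemokine and complement genes, Masp2, the protease of the lectin pathway of complement, had -1.04, -0.78 and -0.38 with ablation plus estradiol, -0.03, 0.26 and 0.44 with ablation, and -0.73, -0.15 and 0.20 with sham. Its arrays with estradiol lay below every ablation array, and the difference from sham was -0.57. Ccl2, which attracts monocytes, had -4.50, -1.19 and -0.37 with ablation plus estradiol, -2.05, -0.81 and 0.21 with ablation, and -4.14, -1.61 and -0.55 with sham, with overlap throughout. Its place among the members rested on estradiol array 5 (-4.50): the difference between ablation plus estradiol and ablation was -0.64 with it and -0.05 without it, and -0.22 with the dim values raised. Of 25 macrophage and myeloid genes tested, Ccl2 among them, 0 were called higher and 13 lower with ablation, and 0 were called with estradiol. Their mean signal was -0.23 to 0.08 with ablation plus estradiol, -0.28 to 0.11 with ablation and -0.14 to 0.50 with sham.

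The 6 genes grouped with channels and secreted peptides had differences of 0.41 to 0.79 for ablation minus sham and of -0.84 to -0.50 for ablation plus estradiol minus ablation. Scn3b, a beta subunit of sodium channels, had 0.58, 0.88 and 1.21 with ablation plus estradiol, 1.10, 1.61 and 1.90 with ablation, and 0.60, 0.97 and 1.30 with sham. Npff, the precursor of neuropeptide FF, had -0.74, -0.28 and 0.06 with ablation plus estradiol, 0.10, 0.54 and 0.83 with ablation, and -0.54, -0.11 and 0.54 with sham, so that no array with estradiol reached the ablation range. Tafa5, a secreted peptide known from brain, Fxyd7, a regulator of the sodium pump, and the potassium channel Kcnc4 were called for ablation and not for estradiol. Of 19 neuronal and synaptic genes tested, 1 was called higher and 4 lower with ablation and 1 lower with estradiol, and 0 were members (57 of all 11379 tested genes were).

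The signalling genes lay between 0.46 and 0.56 above sham with ablation. Ptprv, a receptor tyrosine phosphatase known in mouse from bone and testis, had 1.47, 1.73 and 1.95 with ablation plus estradiol, 1.89, 2.21 and 2.57 with ablation, and 1.20, 1.70 and 1.96 with sham. The group with estradiol lay inside the sham range, with a difference from sham of 0.01. Eef2k, a kinase that slows translation elongation, differed by 0.56 and -0.71, and Bmpr2, a receptor for bone morphogenetic proteins, by 0.52 and -0.52, which was not called for estradiol. In the group of membrane traffic and cilia, Reep1, which shapes the endoplasmic reticulum, differed by 0.52 and -0.51, Htt, the huntingtin gene, by 0.42 and -0.61, and Bbs4, of the BBSome complex of cilia, by 0.41 and -0.62.

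Against sham, the members with ablation plus estradiol stood on both sides. The difference between ablation plus estradiol and sham was -3.26 to 1.96, with a median of -0.15 against -0.03 over the genes that passed the first threshold. The mean with estradiol was below the sham mean in 41 members and above it in 16, and within 0.25 of it in 37. Since this difference is the sum of those the rule used, its position is a description. The 95% interval of the difference (from the t distribution with 28 residual degrees of freedom) held 0 in 43 members, with a half-width of 0.20 to 2.61 (median 0.33), so that smaller differences were not detectable with these arrays. In 12 members, among them Pla2g4b, Cxcl13, Snrnp48, Bmpr2 and Ptprv, all 6 arrays with estradiol lay inside the range of the sham arrays. The shares of all genes for these counts of position against sham were not computed, and nothing particular to the members is read from them.

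By limma across all genes, 6 members were called lower with ablation plus estradiol than with sham, against 11.9% of all genes, and 3 were called higher, against 5.28%. The 6 were Myh6 (-0.64), Nars2 (-0.76), Per3 (-0.76), Thumpd3-as1 (-0.64), Setd4 (-0.41) and Masp2 (-0.57). The 3 were Zfp536 (1.96), Cyp2e1 (0.50) and Pitpnm3 (0.58). With the dim values raised, the difference was -0.31 for Nars2, -0.53 for Per3 and 0.54 for Zfp536. Both shares of the 57, 10.5% and 5.26%, were near those of all genes. Set against the 4 irradiated-described sham arrays alone, 0 of the members were called lower and 2 higher. Calls over all probe sets fell as well, from 2211 lower and 882 higher with all sham arrays to 1322 and 380. As a share of the difference between ablation and sham, the difference between ablation plus estradiol and ablation was 36.5% to 345%, with a median of 126%. The lowest position was that of Prm1 at -3.26, with a 95% interval of -5.87 to -0.65, and it was not called. All its arrays with estradiol were below the 40th percentile, and the difference was -1.36 with the dim values raised.

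**Figure D4:**
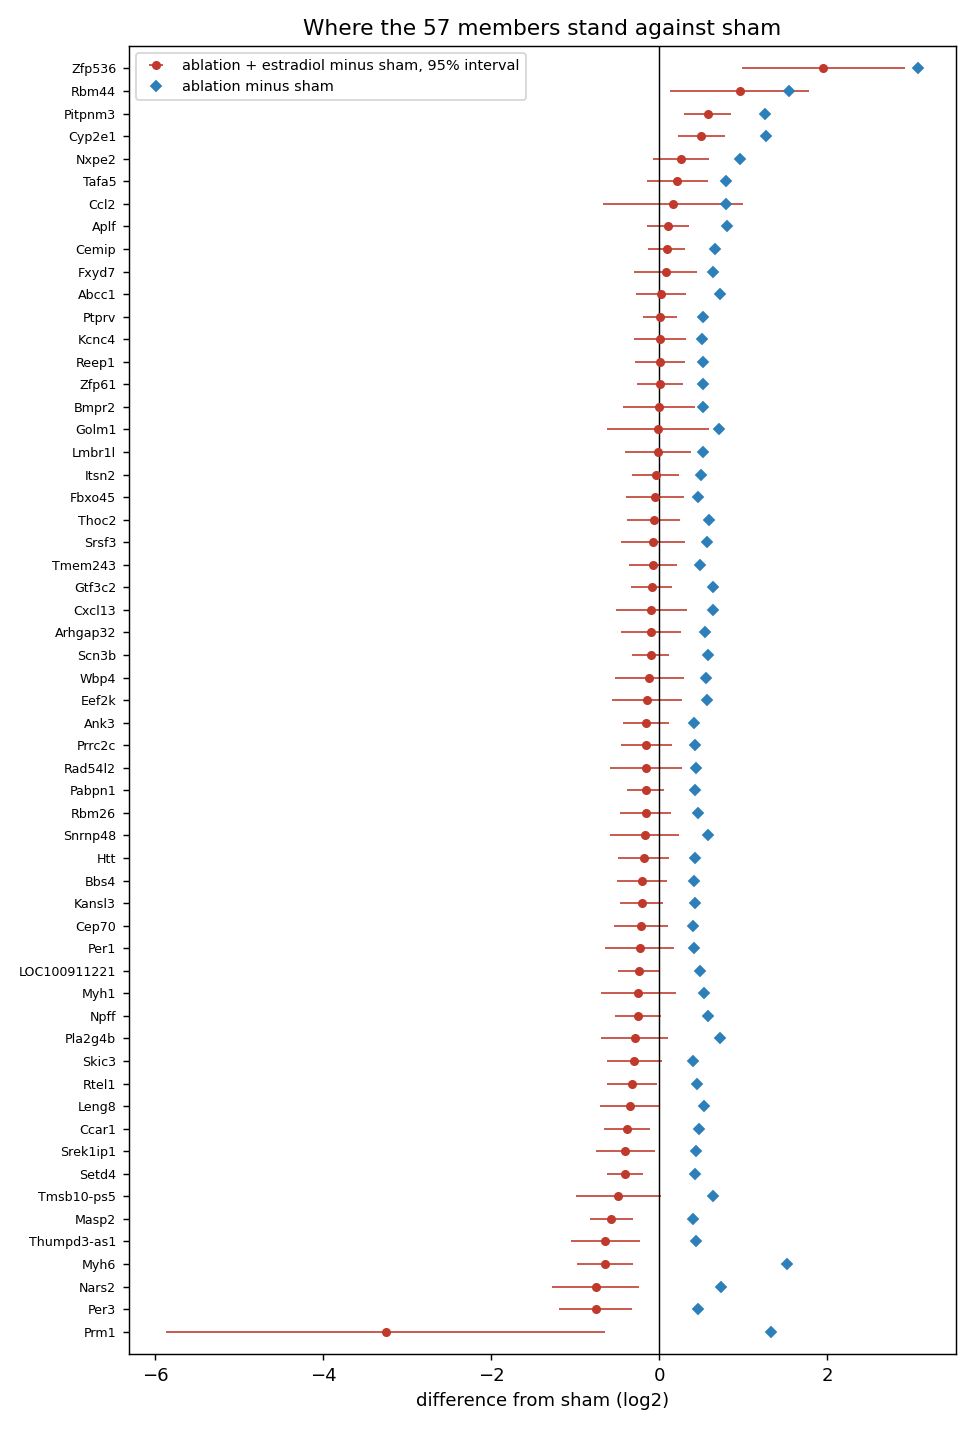
For each of the 57 members, red points give the log2 difference between ablation plus estradiol and sham with its 95% interval, and blue diamonds the difference between ablation and sham. Red points lie on both sides of 0 between -0.76 and 0.58, apart from Prm1 at -3.26, Rbm44 at 0.96 and Zfp536 at 1.96, and to the left of the diamonds throughout, as the rule requires.

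The sham arrays differ among themselves in their description, 4 being described as irradiated and 10 as control although all were irradiated. This contrast was not used by the rule. With limma, 0 of the 57 members and 0 of 11379 genes passed an adjusted p of 0.05. At an unadjusted p under 0.05, 2 members were lower in arrays described as irradiated and 0 higher, against 88 lower (0.773%) and 174 higher (1.53%) of all genes. The members were Ccl2, at -2.29 ± 1.24 in arrays described as irradiated and -1.48 ± 0.44 in those described as control (SD, n = 4 and 10), and Fxyd7, at -1.22 ± 0.39 in arrays described as irradiated and -0.64 ± 0.45 in those described as control. For Ccl2 the difference of -0.80 rested on sham array 13 (-4.14), and was -0.19 without it. The unadjusted p was 0.0476 for Ccl2 and 0.0241 for Fxyd7, with a limma adjusted p of 1.00 for both. Over the members, the difference was -0.80 to 0.86, with a median of -0.05 against 0.07 over all genes.

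Other probe sets of the same genes were not used by the rule but measure the same RNA on the same arrays. Of the 57 members, 30 had 55 other probe sets, and 34 of these, from 21 members, passed the filter. The median difference of these 34 was 0.26 for ablation minus sham and -0.29 for ablation plus estradiol minus ablation, against -0.03 and 0.04 over 4115 such probe sets of all genes. With ablation 12 of the 34 were called higher (35.3%), against 6.61%, and with estradiol 5 were called lower (14.7%), against 3.77%. The 5 belonged to Pabpn1 (0.85 for ablation minus sham and -0.84 for ablation plus estradiol minus ablation), Rbm26 (0.91 and -1.31), Snrnp48 (0.57 and -1.05), Scn3b (0.38 and -0.48) and Rtel1 (-0.00 and -0.48). The 2 other probe sets of Lmbr1l were both called higher with ablation, at 1.20 and 1.22, and not called with estradiol. The probe set used for Lmbr1l is of the kind whose probes can share sequence with other transcripts.

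Some genes were measured differently by their probe sets. Of the 4 other probe sets of Myh1, at -0.13, -0.42, -0.71 and -0.29 for ablation minus sham, those at -0.42 and -0.71 were called lower. The probe set at -0.29, which was not called, was designed on the same transcript sequence as the probe set used. A second probe set of Rbm26 gave -0.02 and -0.17, of Leng8 -0.13 and -0.08, and of Thoc2 -0.09 and 0.03. The only other tested probe set of Kcnc4 gave -0.29 and 0.27, that of Golm1 -0.03 and -0.06, and that of Ccar1 0.02 and -0.27, none of them called. For Myh1, Leng8, Kcnc4, Golm1, Ccar1 and these probe sets of Rbm26 and Thoc2, which transcript or related gene each probe set reads was not tested.

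**Figure D5:**
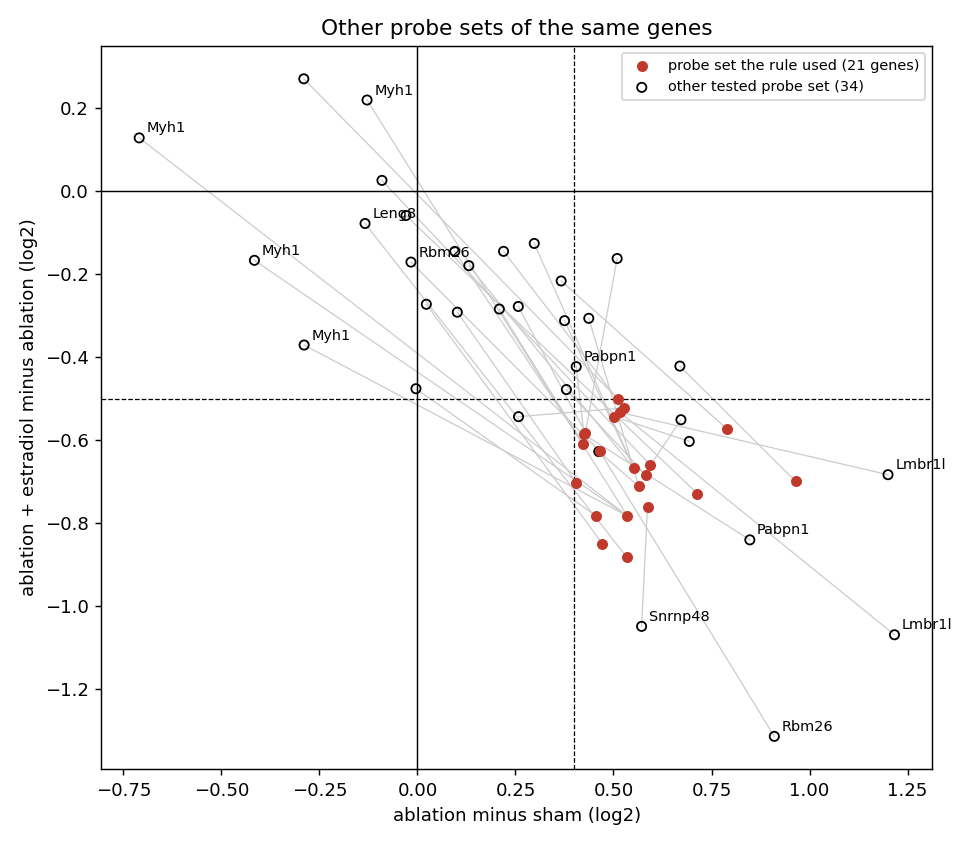
The x axis is ablation minus sham and the y axis ablation plus estradiol minus ablation, both log2. Red points are the probe sets used by the rule for 21 members, open circles the 34 other tested probe sets of the same genes, and lines join those of a gene. Open circles spread from the left, where those of Myh1 lie, some in the upper and some in the lower quadrant, to the lower right. There lie those of Lmbr1l and the Rbm26 probe set that was called.

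As a description, the members' mean signal, from which the rule chose each probe set, over all arrays had a median of -0.25, against 0.49 among genes that passed the first threshold. Probe sets designed on a curated RefSeq transcript made up 12.3% of the members and 12.9% of those genes, and the members had a median of 2 probe sets a gene against 1. Of 34 gene lists of cell types and pathways, 8 members stood in at least 1, and these were Per1, Per3, Prm1, Myh6, Myh1, Ccl2, Nars2 and Bmpr2. Of the 25 Sertoli cell markers, 18 Leydig cell markers, 14 genes of undifferentiated spermatogonia and 17 estrogen-responsive genes tested, 0 were members. Of all 11379 tested genes only 57 were members, so lists this short could hold few, and nothing is read from their absence. The mean signal of the Sertoli markers was 1.72 to 2.11 with ablation plus estradiol, 1.91 to 2.24 with ablation and 1.72 to 1.98 with sham, and that of the Leydig markers 0.58 to 0.93 with ablation plus estradiol, 0.71 to 1.01 with ablation and 1.81 to 2.17 with sham. The part of changes in cell types in the members' values was not tested.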

How the data were processed

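Affymetrix arrays of total RNA were read from the deposited value table, whose 31 columns hold log2 values that the authors made with MAS5, per the submitters' processing notes, with no version given there. The log base and the scaling are not given in the sources used here, and the base was read as 2. Labels call the arrays of a group biological replicates. Of 31042 probe sets, 20826 had 1 gene symbol in the platform annotation, and a gene was taken at the probe set of highest mean. Differences were fitted with limma 3.58.1 (R 4.3.3, lmFit and eBayes with a trend) in 3 groups over the 21269 probe sets above the 40th percentile of their own array in at least 6 arrays, with Benjamini-Hochberg adjustment over all of them, and called at an adjusted p under 0.05. The fit was tested on simulated data.

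The members, lists and tests were chosen with earlier results of these data known, and functional groups were assigned after the members were known. Values by array were given first for the 12 members with the largest smaller change. Also named were the 20 members leading by that measure, members of the lists, those lowest and highest against sham, genes next to a threshold and members of a family. Other members and genes were named after their values were seen. Replicate numbers were checked for pairing by the correlation of same-numbered arrays' deviations from group means, which was -0.09 to 0.05 over 11 numbers for ablation and sham and -0.18 to 0.06 over 6 for ablation plus estradiol and ablation. For ablation plus estradiol and sham it was -0.01 to 0.38, over 0.1 in 3 of 6 numbers. Since not every number passed 0.1 in any comparison, no block was used. Alternatives covered scaling, filter, probe sets, sham descriptions, arrays left out and the block. The arrays' number limits the precision.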

Additional observations from a re-analysis of the deposited data

Results flagged for a closer look

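Among the 57 members, the 6 arrays with estradiol were examined for a single array far from the other 5, and this was found for 6 members. In groups that were not selected, chance gives such an array in about 1 in 20. The members were chosen for a low mean with estradiol, which a single low array can bring about. That rate therefore need not hold for them. Estradiol array 5 stood apart for Prm1 (-2.43, the others -6.09 to -4.77), for Zfp536 (-3.89, the others -1.73 to -0.59) and for Ccl2 (-4.50, the others -1.59 to -0.37). Array 6 stood apart for Wbp4 (-1.01, the others 0.20 to 0.84), array 1 for Reep1 (1.39, the others 0.95 to 1.09) and array 3 for Itsn2 (-0.73, the others -0.21 to 0.00).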

How the results depend on the processing

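The rule gave 36 members, 31 of them among the 57, with the mean of all probe sets of a gene. It gave 52 (49 shared) after quantile normalization, 47 (all shared) after centring on array medians, 55 with dim values raised, 53 (36 shared) with group medians, 67 (51 shared) with the irradiated-described sham arrays alone and 50 (49 shared) with the control-described ones alone. Leaving out 1 array at a time gave 42 (without estradiol array 5) to 74 (without estradiol array 2) members, and 25 of the 57 met the rule in all 31 omissions. Over these omissions, 48 to 54 of the 57 were called higher with ablation than with sham, 34 to 47 lower with ablation plus estradiol than with ablation, 4 to 8 lower and 3 higher with ablation plus estradiol than with sham, and 0 between the sham descriptions. Over all 21269 probe sets, the omissions gave 1657 to 2106 calls higher with ablation and 728 to 1099 lower with estradiol. Against sham they gave 1767 to 2357 lower and 619 to 937 higher. With the irradiated-described sham arrays alone, 27 were called higher with ablation, and 0 lower and 2 higher with estradiol against sham. Over all probe sets these counts were 853, 1322 and 380, against 1947, 2211 and 882 with all sham arrays. With the replicate block the counts were 44 higher with ablation, 37 lower with estradiol, and 5 lower and 3 higher against sham. Over all probe sets the block gave 1483, 765, 1593 and 756 in the same order. Same-numbered arrays were not correlated above 0.1 for every number in any comparison, and the highest correlation, 0.38, was between ablation plus estradiol and sham. Without the 5 arrays above their median for spermatid genes, an alternative chosen after seeing the data, 56 genes met the rule (43 shared), 46 members were called higher with ablation, 39 lower with estradiol, and 4 lower and 4 higher against sham. Over all probe sets these calls were 1643, 785, 2177 and 862. With the mean of all probe sets the sign turned for Myh1 (-0.20) and Rtel1 (-0.0684) in ablation minus sham, for Fbxo45 (0.0788) and Ank3 (0.0613) in ablation plus estradiol minus ablation, and for Masp2 (0.0491) in ablation plus estradiol minus sham. The cause was not tested. Over all probe sets, ablation plus estradiol against ablation gave 126 higher and 1047 lower calls, against 312 and 988 after quantile normalization and 210 and 835 after centring.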
